A study of Mus musculus with 4 samples.

Results

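Lpl, Gpihbp1, Cd36 and Abca1 were followed as genes of lipid uptake and export at the kidney endothelium. The 4 genes were chosen by name, with earlier results of these data known, from 11049 genes that the tables of all libraries list, and none of the 4 was missing from a table. They were read in mouse kidney cells profiled by droplet single-cell RNA sequencing, in endothelial cells and in all other cells. A cell counted as endothelial when the genes Pecam1, Cdh5, Kdr and Tie1 together had at least 3 UMIs (unique molecular identifiers, the tags by which captured transcripts are counted) and at least 12 UMIs per 10000. This held for 2885 of 10535 cells.

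The study set 2 forms of hypertension beside their controls. It has 4 groups of C57BL/6J mice aged 10 to 14 weeks, with no genetic change named: A2 HTN with angiotensin II-induced hypertension, A2 Ctrl given saline, SS HTN with salt sensitive hypertension, and SS Ctrl on a normal diet. How the salt sensitive hypertension was brought about, and for how long, is not stated in the labels. Kidneys were pooled within a group, so each group is 1 library of pooled animals, and cells were taken with beads against CD31 and then podoplanin. With 1 library per group no test and no p-value was computed. Every interval below covers counting error only.

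Lipoprotein lipase, the product of Lpl, splits the triglycerides of circulating lipoproteins on the luminal face of capillaries. GPIHBP1 is the capillary protein that carries the lipase across the endothelial cell and holds it at the lumen, while the enzyme itself is made mainly by the parenchymal cells around the vessel. CD36 is a scavenger receptor that takes up long-chain fatty acids and modified lipoproteins. ABCA1 is a membrane transporter that passes cholesterol and phospholipid to lipid-poor apolipoprotein A-I, and its gene is a classical target of the oxysterol-sensing liver X receptors (LXR).

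There were 7479337 UMIs in 2837 cells of angiotensin II and 6471741 UMIs in 3284 cells of salt-sensitive. The control table, with 4529656 UMIs, holds 2 libraries told apart by barcode ending, of 2406 and 2008 cells, and no source used here says which is the saline and which the normal-diet control. They are called control library 1 and control library 2, were summed for the ratios, and are also given apart. Endothelial cells numbered 1223 in angiotensin II, 1517 in salt-sensitive, 19 in control library 1 and 126 in control library 2. Their median UMIs per cell were 4792, 2371, 1995 and 2811, against 863, 1005, 970 and 536 in the other cells. All 8 further pan-endothelial markers were in the tables, and 7 or 8 of them were higher in endothelial than in other cells of each library. Of the 9 lymphatic markers 4 were in all tables, and Lyve1, Mmrn1 and Ccl21a were in none. Podoplanin (Pdpn), the second selection marker, was found in 42 cells of the salt-sensitive and 39 cells of the control table. It is not among the genes of the angiotensin II table used here, so these cells are described as endothelial and not as lymphatic. The other cells carried tubule RNA at 20426 to 22767 CPM (UMIs per 1000000 UMIs of the cells summed) for 24 of 26 tubule markers. Endothelial cells carried those markers at 838 CPM in angiotensin II, 1564 in salt-sensitive, 11700 in control library 1 and 1347 in control library 2. Just inside the gate, with 3 UMIs, lay 38, 113, 9 and 4 cells in that order of libraries, and 142, 206, 63 and 35 cells with 2 UMIs lay just outside.

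In GRCm38 with the GENCODE M21 annotation, Lpl lies at chr8:68880491-68907448 on the plus strand and Gpihbp1 at chr15:75596628-75599481 on the plus strand. Cd36 lies at chr5:17781690-17888801 and Abca1 at chr4:53030787-53159895, both on the minus strand. None of the 4 overlaps another annotated gene. RefSeq windows from 250 bases before to 50 after the gene start (GRCm38.p6) were at hand for 2 of the 4 genes, and they are shown because the exporter and the uptake receptor are set against the LXR and fatty acid lists below. The Abca1 window is chr4:53159846-53160145 and the Cd36 window chr5:17835847-17836146, both read on the minus strand, and the latter lies inside the annotated extent of the gene.
Abca1: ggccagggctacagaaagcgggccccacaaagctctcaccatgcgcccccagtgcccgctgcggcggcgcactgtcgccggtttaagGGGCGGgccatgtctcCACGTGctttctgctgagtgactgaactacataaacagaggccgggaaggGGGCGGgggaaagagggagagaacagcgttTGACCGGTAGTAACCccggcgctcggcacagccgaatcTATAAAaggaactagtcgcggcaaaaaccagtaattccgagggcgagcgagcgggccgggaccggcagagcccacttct
Cd36: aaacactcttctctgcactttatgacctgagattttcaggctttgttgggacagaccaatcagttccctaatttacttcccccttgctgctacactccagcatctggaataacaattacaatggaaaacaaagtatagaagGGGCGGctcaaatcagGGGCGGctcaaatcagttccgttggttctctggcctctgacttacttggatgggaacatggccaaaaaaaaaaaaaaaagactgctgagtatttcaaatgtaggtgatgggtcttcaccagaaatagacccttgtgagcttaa
Capitals mark motif matches found on either strand, none of which overlap. The LXR-type direct repeat was searched as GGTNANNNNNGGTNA and matched in the Abca1 window as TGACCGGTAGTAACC, on the reverse strand from -67 to -53 relative to the start. It was found in 0.818% of the windows of 27025 genes and not in the Cd36 window. The GC box GGGCGG occurred at 2 places in each of the windows and in 38.2% of all windows. The Abca1 window also held TATAAA from -29 to -24, present in 15.7% of all windows, and the E-box CACGTG from -147 to -142, present in 8.09%. These are letter matches and no measurement of binding.

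Lpl was mostly found outside the endothelium. Of its 2367 UMIs, 20.8% were in endothelial cells. In endothelial cells it stood at 18.8 CPM in angiotensin II (95% Poisson interval 15.4 to 22.8), 86.9 in salt-sensitive (77.9 to 96.5), 204 in control library 1 (81.9 to 420) and 108 in control library 2 (75.9 to 149). The angiotensin II library was the lowest, and its interval met none of the others. In other cells the levels were 148, 283, 155 and 351 CPM, so that every library except control library 1 had less Lpl in its endothelial than in its other cells. The tubule-bearing clusters of other cells held 1794 of the 1875 Lpl UMIs found there.

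Gpihbp1, the anchor of the lipase, was the most endothelial of the 4 genes by the share of its own UMIs. Of its 8563 UMIs, 95.5% were in endothelial cells. It stood at 1059 CPM in angiotensin II (1032 to 1086), 510.0 in salt-sensitive (488 to 533), 349 in control library 1 (180 to 610.1) and 880.3 in control library 2 (784 to 985). The salt-sensitive level lay below angiotensin II and control library 2, and the interval of control library 1, which rests on 12 UMIs, included it. A Gpihbp1 UMI was seen in 75.5%, 45.7%, 21.1% and 63.5% of endothelial cells, and in 8.92%, 5.43%, 0.503% and 1.17% of other cells. After each cell was thinned to 1000 UMIs, which leaves out 29, 39, 3 and 7 shallower endothelial cells, the endothelial shares were 48.2%, 29.9%, 18.8% and 47.1%. At equal depth angiotensin II and control library 2 therefore stood close together and salt-sensitive lower. In other cells the level was 121, 49.8, 4.38 and 20.4 CPM, higher in the libraries where 43.1% and 46.2% of cells were endothelial than in those with 0.79% and 6.27%. Of these Gpihbp1 UMIs of other cells, 54.0%, 54.9%, 0% and 67.9% lay in 1 cluster of 437 cells, described at the end. The parts of free RNA and of endothelial cells that missed the gate were not tested. Among the tubule-bearing clusters there were 16.8 Gpihbp1 UMIs per 100 UMIs of the 4 gate genes in angiotensin II and 7.28 in salt-sensitive, against 26.5 and 13.1 in their endothelial cells. The gate itself holds those 4 genes low outside it and high inside it, so these values are no test of free RNA.

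Cd36, the fatty acid receptor, was shared between the compartments. Endothelial cells held 90.9% of its UMIs in angiotensin II, 76.7% in salt-sensitive, 0.524% in control library 1 and 31.8% in control library 2, which differ in their share of endothelial cells. Their level was 436 CPM in angiotensin II (418 to 453), 304 in salt-sensitive (287 to 321), 58.2 in control library 1 (7.05 to 210.3) and 332 in control library 2 (274 to 399). Angiotensin II was the highest, and salt-sensitive and control library 2 overlapped. Other cells had 130, 149, 139 and 178 CPM, a narrow range beside that of the endothelial cells. Control library 1, with 2 Cd36 UMIs in 19 endothelial cells, was the 1 library in which the endothelial level was the lower. Macrophages are also known to express Cd36, and 4 of 10 macrophage and myeloid markers were in the tables. They summed to 31.9 CPM in the endothelial cells of angiotensin II, to 21.2 CPM in those of salt-sensitive and of the summed control, where C1qa was at 0, and to 130.1 to 410.4 CPM in other cells (controls summed).

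Abca1, the cholesterol exporter, had a similar level in endothelial and other cells. It stood at 76.8 CPM in angiotensin II (69.7 to 84.5), 57.3 in salt-sensitive (50.1 to 65.3) and 34.98 in control library 2 (18.1 to 61.1). Control library 1 had no Abca1 UMI in its endothelial cells, and 3 UMIs of its 34358 would be 87.3 CPM, so its level was not measurable at this depth. The control library 2 value rests on 12 UMIs, and its interval overlapped that of the salt-sensitive library. Other cells had 63.7, 66.2, 55.8 and 48.2 CPM, which spans less than the endothelial levels. An Abca1 UMI was seen in 24.0%, 12.4% and 8.73% of the endothelial cells of angiotensin II, salt-sensitive and control library 2, and after thinning in 6.78%, 5.48% and 2.52%.

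**Figure D1:**
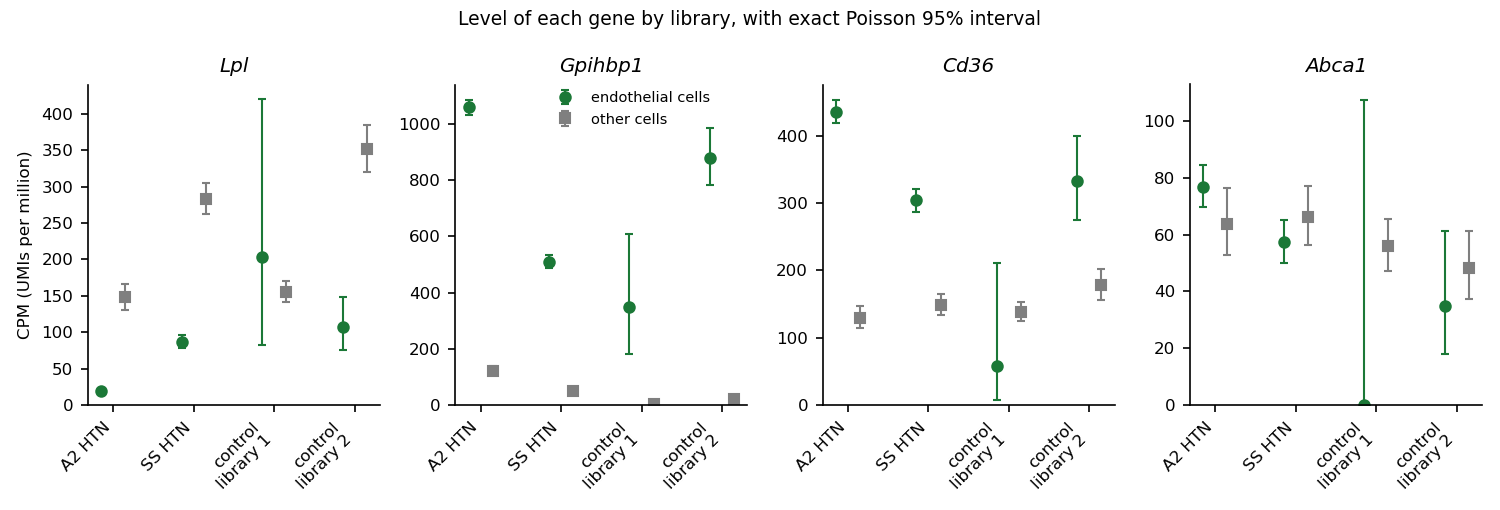
Level of each gene (CPM, linear axis) in endothelial cells (circles) and other cells (squares) of the 4 libraries, with exact Poisson 95% intervals. Lpl is lowest in the endothelial cells of angiotensin II (18.8 CPM) and Gpihbp1 highest there (1059 CPM), and the intervals of control library 1 are wide.

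Endothelial cells were clustered without the 4 genes and without the lipid gene lists, which gave 12 clusters. Cluster 7 (296 cells) was glomerular-like by Ehd3, Plat, Pi16, Mapt and Tbx3. Clusters 3 and 8 (410 and 406 cells) were peritubular-capillary-like by Esm1, Npr3 and an insulin-like growth factor binding protein gene. Cluster 5 (81 cells) was venous-like, clusters 9 and 10 (211 and 89 cells) were arterial-like, and cluster 6 (206 cells) was proximal tubule-like despite passing the gate. Clusters 0, 1, 2, 4 and 11 are given by number. Doublets were not called, so mixed cells remain.

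Within the endothelium Lpl was highest in the glomerular-like cluster. It reached 419 CPM there (378 to 464) over all libraries. In the other clusters it ranged from 3.99 to 22.5 CPM, apart from the tubule-like cluster 6 at 77.3 CPM. In the glomerular-like cluster the level was 326 CPM in the 55 cells of angiotensin II (254 to 413), 430.0 in the 223 cells of salt-sensitive (380.1 to 485) and 723 in the 16 cells of control library 2 (488 to 1033). Angiotensin II and salt-sensitive overlapped, and control library 2 lay above both. An Lpl UMI was seen in 50.3% of glomerular-like cells. There were 39.2 Lpl UMIs per 100 tubule-marker UMIs in this cluster, against 0.985 in the tubule-bearing clusters and 0.893 in the tubule-like cluster 6. In the other 10 endothelial clusters this ratio lay between 0.656 (cluster 1) and 2.46 (cluster 11), on 4 to 21 Lpl UMIs each. The part of tubule RNA in these levels was not tested.

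In 3 of the 4 libraries most endothelial Lpl UMIs came from that cluster. Of the endothelial Lpl UMIs, 66.3% (angiotensin II), 78.2% (salt-sensitive) and 81.1% (control library 2) lay in the glomerular-like cluster. It was 4.50%, 14.7% and 12.7% of their endothelial cells. Of the 7 Lpl UMIs of control library 1, 42.9% lay there and as many in the tubule-like cluster 6. The 5 of 7 glomerular markers in the tables summed to 826 CPM in angiotensin II against 1506 in salt-sensitive and 1505 in summed control endothelial cells. No deposited cell had 3000 genes or more (2987 at most), and 41.9% of angiotensin II endothelial cells had at least 2500 genes against 4.68% of salt-sensitive and none of the control cells. How the gene limit bears on the number of glomerular-like cells was not tested.

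**Figure D2:**
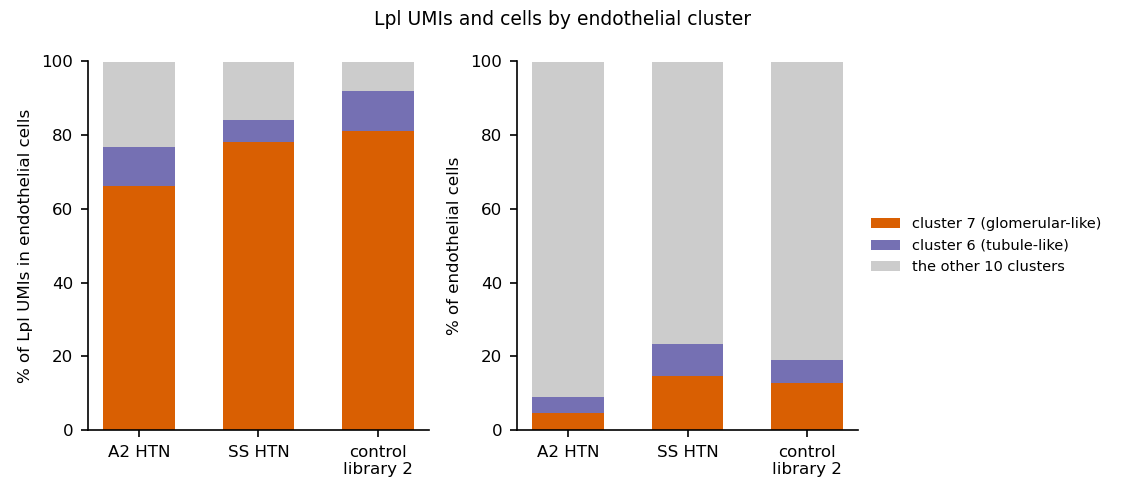
Share of the endothelial Lpl UMIs (left) and of the endothelial cells (right) that fell in cluster 7, cluster 6 and the other 10 clusters, in percent, for angiotensin II, salt-sensitive and control library 2. Cluster 7 holds 66.3% to 81.1% of the UMIs and 4.50% to 14.7% of the cells.

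Gpihbp1 was high in the capillary-like clusters and in clusters 0 and 4, which have no name, and low in the arterial-like and venous-like ones. It stood at 1666 CPM in cluster 3 (1605 to 1728), 1448 in cluster 4, 1118 in cluster 0 and 1020 in cluster 8. It was 288 CPM in the glomerular-like cluster (254 to 326). In the venous-like cluster it was 25.9 CPM and in the arterial-like cluster 9 it was 72.1 CPM. In the arterial-like cluster 10 no UMI was found in 89 cells, which allows a level of up to 9.81 CPM. The level in the glomerular-like cluster therefore lay between those of the peritubular-capillary-like and of the arterial-like and venous-like clusters. In cluster 4 the libraries were close, with 1460 CPM in angiotensin II and 1406 in salt-sensitive. In cluster 8 they were apart, with 1441 (1296 to 1597), 847 (773 to 928) and 929 (750.1 to 1139) CPM in angiotensin II, salt-sensitive and summed control. In cluster 3 the values were 1714, 1345 and 1726 CPM, where angiotensin II and the control overlapped and salt-sensitive was below angiotensin II.

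Cd36 had another order of clusters than Gpihbp1. It was highest in cluster 0 (715 CPM, 664 to 768), the venous-like cluster (697, 607 to 796) and cluster 4 (684, 635 to 736), whose intervals overlap. The peritubular-capillary-like clusters 8 and 3 had 471 and 343 CPM. The glomerular-like cluster had 92.7 CPM and the arterial-like clusters 88.8 and 68.7 CPM, again with overlapping intervals. The last value, of cluster 10, rests on 3 of 89 cells with a Cd36 UMI. The venous-like cells were thus high in Cd36 and low in Gpihbp1. No cluster was venous-like at the coarser resolution of 0.4, so levels named by that cluster rest on 1 clustering. In these cells Cd36 stood at 953 CPM in the 27 cells of angiotensin II (786 to 1146) and 488 in the 49 cells of salt-sensitive (389.6 to 603), which did not overlap. In cluster 8 the summed control had 240 CPM (154 to 357), below angiotensin II at 464 (384 to 557) and salt-sensitive at 516 (458 to 579). In cluster 3 the summed control had 106 CPM on 7 UMIs, below angiotensin II at 356 and salt-sensitive at 326. In cluster 4 the order was the other way, with 1716 CPM in the 10 control cells (1188 to 2398) against 752 and 537. Only 5 of these 10 cells had a Cd36 UMI, and they held 29.3% of the endothelial Cd36 UMIs of the summed control.

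Abca1 was highest in cluster 11, led by the small heat shock protein gene Cryab, at 199 CPM (153 to 255). The venous-like cluster followed at 136 CPM (98.1 to 184), whose interval overlapped that of cluster 11, and cluster 4 at 106 (87.2 to 128). It was lowest in the arterial-like cluster 10 (16.3 CPM, 5.31 to 38.2) and cluster 8 (28.7, 18.8 to 42.1). In cluster 11 the 32 cells of angiotensin II had 188 CPM and the 64 cells of salt-sensitive 210 CPM, a log2 ratio of -0.15 (-0.93 to 0.61). No control cell fell in cluster 11, so the cluster with the highest Abca1 level has no control value.

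**Figure D3:**
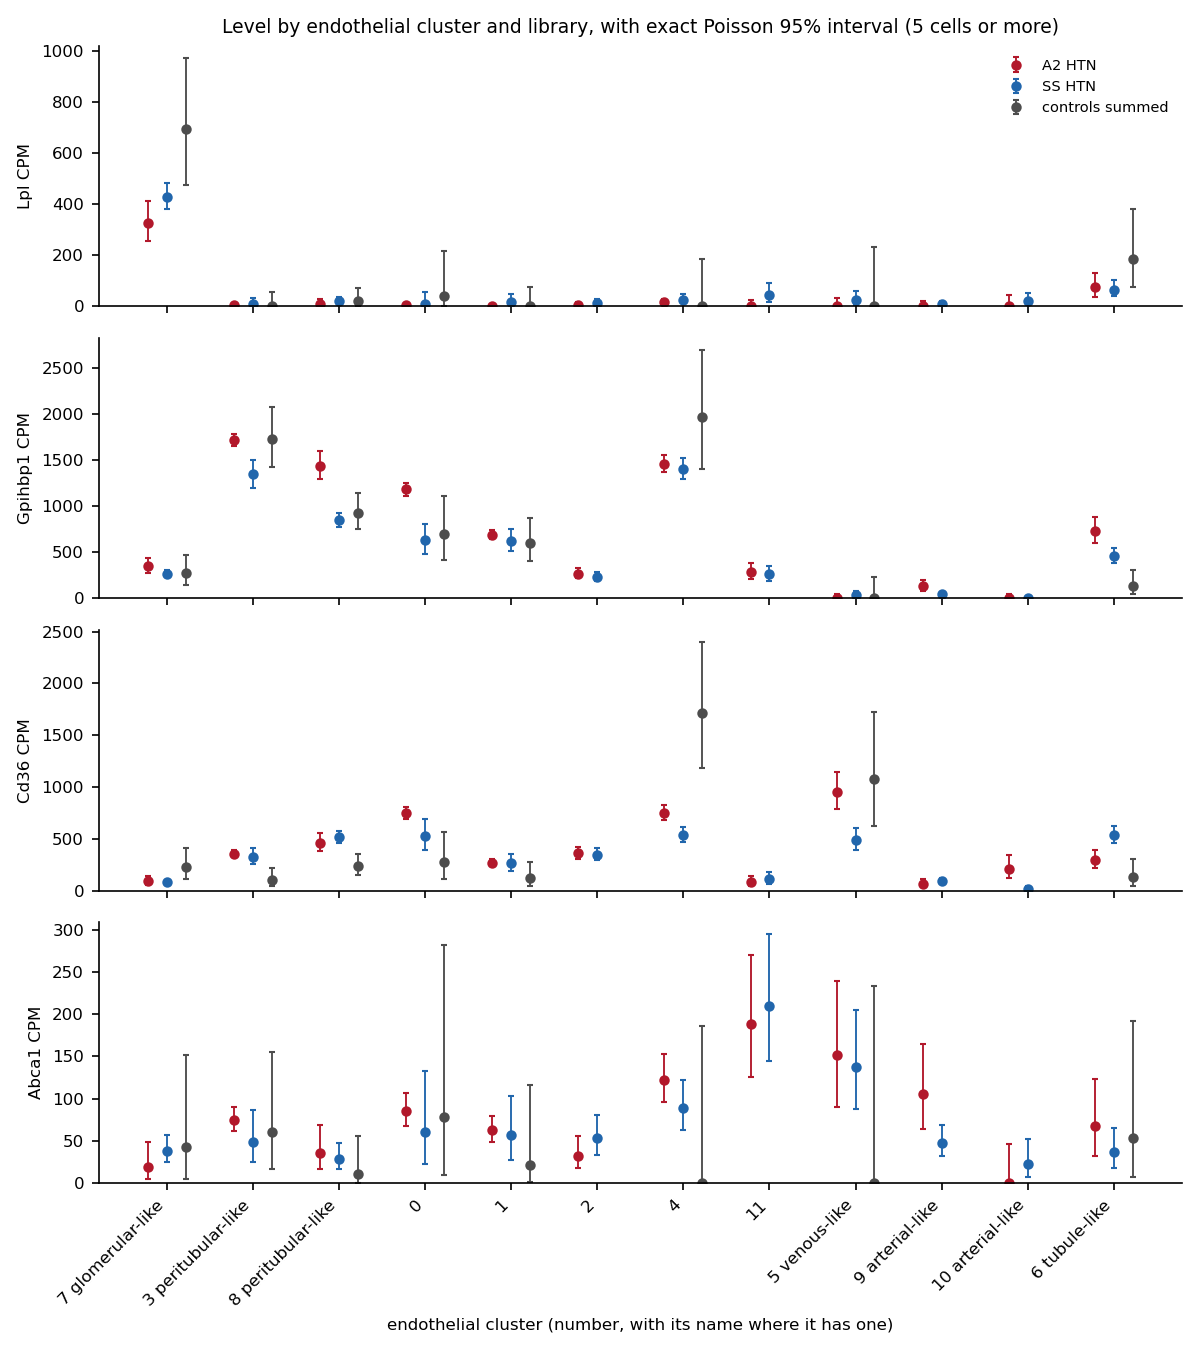
Level (CPM, linear axes that differ between panels) of Lpl, Gpihbp1, Cd36 and Abca1 in the 12 endothelial clusters for angiotensin II, salt-sensitive and the summed controls, with exact Poisson 95% intervals, where a library has at least 5 cells. Lpl stands out in cluster 7, Gpihbp1 in clusters 3, 4, 8 and 0, Cd36 in clusters 0, 4 and 5 and Abca1 in clusters 11 and 5.

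The 4 genes were not seen in the same cells to the same degree. Among the 1700 endothelial cells with a Gpihbp1 UMI, 46.6% had a Cd36 UMI, against 28.2% of the cells without, but the cells with Gpihbp1 were also deeper (median 3562 against 2707 UMIs). In the glomerular-like cluster 69 of the 149 cells with Lpl (46.3%) also had Gpihbp1, against 32.7% of the cells without Lpl, and the cells with Lpl were again deeper (median 3003 against 2655 UMIs). Over 26 units, each a cluster in 1 library with at least 20 cells, the log levels of the 4 genes had Pearson correlations between -0.16 (Lpl and Cd36) and 0.38 (Gpihbp1 and Cd36). Among 6667 genes compared the same way, the most alike for Lpl were the active zone gene Erc2 (0.81), the tau gene Mapt (0.78) and the semaphorin gene Sema5a (0.73), all of which lead or mark cluster 7. For Gpihbp1 they were the basement membrane collagen gene Col15a1 (0.91), the immune GTPase gene Gimap9 (0.91) and Cmtm8 (0.89). For Cd36 they were Snn (0.81), the antigen-processing gene H2-DMb1 (0.79) and the death-associated kinase gene Dapk2 (0.78). For Abca1 they were the syntaxin gene Stx3 (0.82), the kinase gene Mapk6 (0.80) and Smad1 (0.80), a transducer of bone morphogenetic protein signals. The units share libraries and depth, and these values are descriptions.

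Set against the control, angiotensin II endothelial cells had less Lpl and more Abca1. A log2 ratio below is that of the summed CPM with 0.5 UMI added to each sum, and a gene is called higher or lower past 1.5-fold with a mean level of at least 25 CPM. Of 6653 genes tested, 5.8% were higher and 9.68% lower in angiotensin II endothelial cells, and of the 4 genes Abca1 was higher and Lpl lower. Lpl is below 25 CPM in angiotensin II and reached that mean only through the groups it is compared with, so it could be called in 1 direction only. Lpl, at 18.8 against 117 CPM, had a log2 ratio of -2.64 (-3.15 to -2.09), a level 6.23-fold below the control. It was -2.38 (-3.35 to -1.21) without the glomerular-like cluster and -1.06 when clusters were weighted equally. Over control, in either model, this weighting used only the 6 clusters with at least 10 cells in both groups. Abca1, at 76.8 against 31.8 CPM, had 1.22 (0.45 to 2.24) on 12 control UMIs, and 1.08 against control library 2 alone. It had 1.03 with clusters weighted equally and 1.07 (-0.06 to 2.85) in the peritubular-capillary-like clusters summed, on 5 control UMIs. In cluster 3 it had 0.14 (-1.09 to 2.21) on 4 control UMIs. Cd36 had 0.50 (0.23 to 0.78) and Gpihbp1 0.35 (0.18 to 0.52), both short of the threshold. With a looser gate (2 UMIs and 8 per 10000) both passed it, Cd36 at 0.69 and Gpihbp1 at 0.67. Cd36 also passed it with a stricter gate (5 UMIs and 20 per 10000, 0.60) and with cells thinned to 1000 UMIs (0.59), while with clusters weighted equally it had -0.19.

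Salt-sensitive endothelial cells had less Gpihbp1 than the summed control, and their Abca1 level was the higher on few control UMIs. Of 6727 genes 7.57% were higher and 11.2% lower, and of the 4 genes Abca1 was higher and Gpihbp1 lower. Gpihbp1, at 510.0 against 832 CPM, had a log2 ratio of -0.71 (-0.88 to -0.53). It was -0.79 (-0.96 to -0.61) against control library 2 alone and 0.49 (-0.26 to 1.5) against the 19 cells of control library 1, -0.43 with the looser gate and -0.19 with clusters weighted equally, both of which miss the threshold. Abca1 had 0.79 (0.02 to 1.82) on the same 12 control UMIs, 0.66 (-0.12 to 1.69) against control library 2 alone, an interval that includes 0, and 0.46 with the looser gate, below the threshold. It had 0.67 with clusters weighted equally, but 0.09 (-1.2 to 1.93) in the peritubular-capillary-like clusters summed, on 5 control UMIs. Lpl had -0.44 (-0.88 to 0.06) and Cd36 -0.02 (-0.29 to 0.27), and neither interval excluded 0. Lpl passed the threshold with cells thinned (-0.68) and with clusters weighted equally (-0.66). Both models were set against the same control sum, so their ratios are not independent.

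Set against each other, without the control, the models differed most in Lpl and Gpihbp1. Of 6590 genes 5.1% were higher and 5.33% lower in angiotensin II than in salt-sensitive endothelial cells. Of the 4 genes Gpihbp1 was higher and Lpl lower. Gpihbp1 had 1.05 (0.98 to 1.13), a 2.08-fold difference, and 0.42 with clusters weighted equally, below the threshold. Among the 4 clusters with the highest Gpihbp1 level its ratio was 0.05 (-0.10 to 0.21) in cluster 4, 0.35 (0.18 to 0.53) in cluster 3, 0.77 (0.56 to 0.97) in cluster 8 and 0.90 (0.54 to 1.3) in cluster 0. At low levels it was 1.38 (0.54 to 2.2) in the arterial-like cluster 9, on 24 and 30 UMIs, and -1.77 (-7.75 to 0.71) in the venous-like cluster, on 1 and 7 UMIs. Lpl had -2.20 (-2.53 to -1.88), but -0.39 (-0.80 to -0.01) within the glomerular-like cluster, which holds most of its UMIs. It was -1.76 (-2.39 to -1.17) without that cluster, where 35 and 75 UMIs are left (6.60 against 22.5 CPM). Over all endothelial cells tubule markers stood at 838 against 1564 CPM, and without the cells in which they make up at least 1% of UMIs the Lpl ratio was -2.29. With cells thinned to equal depth the Lpl ratio was -1.44, and with clusters weighted equally -0.65. Cd36 had 0.52 (0.42 to 0.62) and Abca1 0.42 (0.19 to 0.66), both short of the threshold. The Cd36 interval lay above 0 in clusters 0 (0.49), 4 (0.48) and 10 (3.45, on 17 and 4 UMIs) and the venous-like cluster (0.96). It lay below 0 in the tubule-like cluster (-0.85, -1.37 to -0.37). In cluster 10 all 17 Cd36 UMIs of angiotensin II came from 1 of its 27 cells. That ratio thus rests on 1 cell, and its interval takes the UMIs as separate counts. In the peritubular-capillary-like clusters summed, Cd36 had -0.31 (-0.5 to -0.12) and Abca1 0.98 (0.39 to 1.66), the latter past the threshold. In clusters 3 and 8 apart, Cd36 had 0.12 and -0.15 and Abca1 0.57 and 0.35, and every interval included 0. In other cells Lpl had -0.93 (-1.14 to -0.73), while the 2 control libraries differed there by 1.18 (0.98 to 1.37), whose interval overlaps the size of that between the models.

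**Figure D4:**
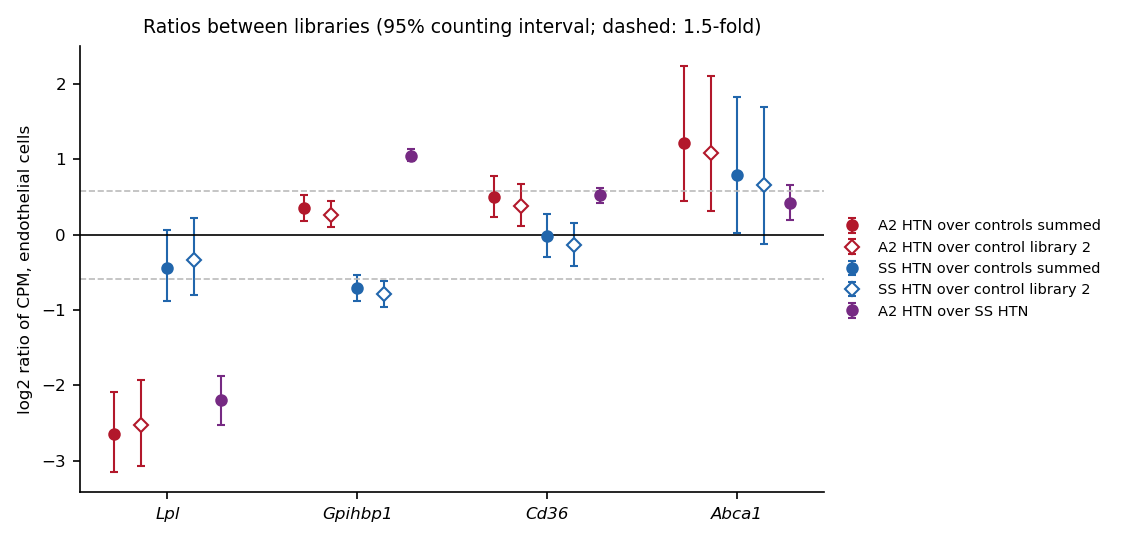
Log2 ratios of CPM in endothelial cells for each gene, with 95% counting intervals. Filled circles are ratios over the summed controls or between the models, open diamonds ratios over control library 2, and dashed lines mark 1.5-fold. Lpl lies near -2.64 and -2.20 where angiotensin II is the numerator, Gpihbp1 lies on opposite sides of 0 in the 2 models and Abca1 above 0 in both.

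The genes around these 4 were read from 6 lists, of which only the members that reach the mean of 25 CPM could be called. A gene below 25 CPM in either group of a comparison reached that mean only through the other group. It could be called higher in that other group only. Of 19 genes of cholesterol export and LXR targets, 16 were in the tables and 11 tested. In angiotensin II over control 2 of the 11 were higher and none lower, with a median log2 ratio of 0.28 against -0.03 over all tested genes, of which 5.8% were higher and 9.68% lower. They were Abca1 and Abcg1, which exports cholesterol to high-density lipoprotein (95.3 against 58.3 CPM, 0.68). Against salt-sensitive, Abcg1 (0.91, 0.67 to 1.15) and the apolipoprotein gene Apoe (748 against 490.3 CPM, 0.61) were higher, with 2 of 11 called, none lower and a median of 0.42 against -0.01, where 5.1% of all tested genes were higher and 5.33% lower. In salt-sensitive over control, Abca1 and the phospholipid transfer protein gene Pltp (0.74) were called of 11, and the median was 0.04 against -0.05, where 7.57% of all tested genes were higher and 11.2% lower. In that comparison Abcg1 had -0.23 and Apoe -0.57, on the other side of 0 from Abca1. The counts of the lists below, over the summed control or between the models, stand beside these same shares and medians over all genes. The counts against control library 2 alone do not. There 388 genes in all were higher and 494 lower in angiotensin II, and 660 higher and 726 lower in salt-sensitive. The share of tested genes is not given for control library 2.

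Of 24 sterol synthesis genes, 23 were in the tables and 10 tested in angiotensin II over control, where 4 were lower and none higher, with a median of -0.52 against -0.03 over all tested genes, 9.68% of which were lower. Against control library 2 alone 5 of 10 were lower, with a median of -0.62, where 494 genes in all were lower. Among the 4 lower over the summed control were Srebf2, the transcription factor of the pathway (48.8 against 92.7 CPM, -0.95), and Pmvk, phosphomevalonate kinase (-0.71). Their control sums were 35 and 18 UMIs. The Srebf2 interval (-1.44 to -0.38) excluded 0 and that of Pmvk (-1.38 to 0.12) did not. Against salt-sensitive, 2 of 12 tested were lower, among them the isomerase gene Idi1 (-0.98), and the median was -0.32. In salt-sensitive over control Idi1 was higher (1.0, on 7 control UMIs) and Srebf2 lower (-0.75), with a median of -0.13 over 12 genes. Idi1, at 20.1 CPM in angiotensin II and 18.5 in the summed control, passed the filter only through salt-sensitive (39.6).

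Of 25 genes of fatty acid uptake, binding and activation, 20 were in the tables and 16 tested, of which 3 were higher and 4 lower in angiotensin II over control (median 0.15). The higher ones were the fatty acid binding protein genes Fabp5 (671 against 389 CPM, 0.78) and Fabp4 (8876 against 5614 CPM, 0.66) and the caveolin gene Cav1 (0.64). Against control library 2 alone 1 of 14 was higher and 3 lower, where 388 genes in all were higher and 494 lower. There Fabp5 had 0.67, while Fabp4 had 0.57 and Cav1 0.56, just below the threshold. The lowest were the acyl-CoA synthetase and transporter gene Slc27a2 (-2.23), the fatty acid sensor gene Ppara (-1.92) and Got2 (-0.74). Slc27a2 and Ppara were tubule genes here, at 1611 and 550.0 CPM in the other cells of the controls, and stood at 786 and 640.3 CPM in the 19 endothelial cells of control library 1. Against control library 2 alone Slc27a2 had -1.12 and Ppara 0.27. In salt-sensitive over control Cavin1 (1.17) and Cav1 (0.78) were higher and Slc27a2 lower (-1.01, but 0.10 against control library 2), 3 of 16 in all with a median of 0.01. Against control library 2 alone 4 of 15 were higher and 1 lower, where 660 genes in all were higher and 726 lower. Ppara, at 5 control UMIs, had 2.03 there. Against salt-sensitive, Ppara (-1.76), Slc27a2 (-1.22) and Cavin1 (-0.99), a coat protein gene of caveolae, were lower in angiotensin II and none of 15 higher. Ppara, at 19.2 CPM in angiotensin II, reached the mean of 25 CPM only through salt-sensitive (65.4) or the summed control (71.5). It could thus be called lower in angiotensin II but not higher.

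Of the lipoprotein receptors, Scarb1, the high-density lipoprotein receptor gene, was higher in angiotensin II than in control (154 against 101 CPM, 0.59) and than in salt-sensitive (0.66). Its ratio over control library 2 alone was 0.49. Lrp2, a receptor gene of the proximal tubule that is also among the tubule markers, was lower in both comparisons (-1.61 and -1.06), and had -0.85 against control library 2 alone. Of 8 genes tested among 15 listed, 1 was higher and 2 lower in each. In salt-sensitive over control 1 of 8 was called, Acvrl1 (0.62, and 0.57 against control library 2, just below the threshold), a receptor gene of endothelial cells that also binds low-density lipoprotein. Of the lipid droplet and oxidation genes, Plin2 (0.71), a droplet coat gene, and Lipe (0.62), hormone-sensitive lipase, were higher in angiotensin II over control, 2 of 13 tested among 20 listed. Against control library 2 Plin2 had 0.57 (-0.07 to 1.38) on 18 control UMIs and Lipe 0.75 (-0.12 to 1.97) on 9, and both intervals include 0. In salt-sensitive over control Hadhb (-1.07), of mitochondrial beta-oxidation, and Ucp2 (-0.64) were lower, 2 of 13 (4 of 14 against control library 2 alone), and Hadhb was higher in angiotensin II than in salt-sensitive (0.60). Of the list of lipolysis on the capillary surface, 5 of 17 genes were tested. No gene of it other than Lpl and Gpihbp1 was called in a comparison. The others were the proprotein convertase gene Furin, the proteoglycan gene Hspg2 and Sel1l, which are named because so few were tested, and they lay between -0.17 and 0.39.

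**Figure D5:**
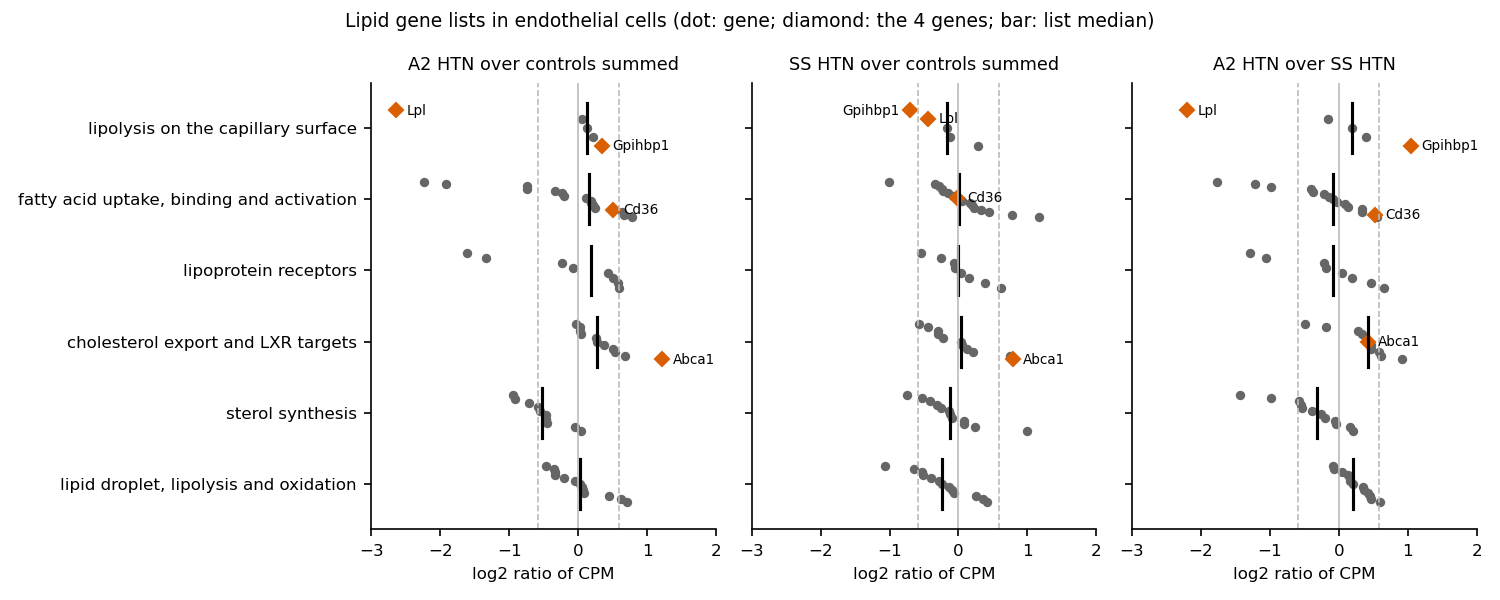
Log2 ratios of CPM in endothelial cells for the tested genes of 6 lipid lists in the 3 comparisons. Dots are genes, diamonds Lpl, Gpihbp1, Cd36 and Abca1, black bars list medians and dashed lines 1.5-fold. The sterol synthesis median (-0.52) is the lowest and the cholesterol export median (0.28) the highest in angiotensin II over control.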

How the data were processed

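Per the labels' protocols, pooled kidneys were dissociated, selected with antibodies to CD31 and podoplanin, and sequenced as droplet 3' libraries. Reads were processed with Cell Ranger 7.0.0 and Seurat 4.1 on mm10, per the submitters' processing notes. The deposited tables hold raw UMI counts per gene and cell, made by the authors, with no cell annotation. Tables were matched to groups by name. The members and lists were chosen with earlier results of these data known.

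Counts were summed over cells (Python 3.11.15, numpy 2.4.6) and scaled to CPM over 11049 shared genes. Levels have exact Poisson and shares exact Clopper-Pearson 95% intervals (scipy 1.17.1). The interval of a ratio is the exact conditional binomial one of the plain sums. Clusters came from scanpy 1.11.5 (1500 variable genes, 20 components, 15 neighbours, Leiden resolution 0.8). They were named by at least 3 fixed markers among the top 50 genes. Named genes were the 4 members, up to 3 highest and 3 lowest called genes of each list, the 3 genes most like each member (correlation of log CPM + 5) and the gate genes. Some genes of the lists are not reported here. The scripts were tested on simulated data. Alternatives changed the gate, depth, denominator, clusters, controls, fold and table. Barcodes found in more than 1 library numbered 7. The joined hypertension table holds 88.2% of the UMIs of the separate table in shared angiotensin II cells, so the separate tables were used.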

Additional observations from a re-analysis of the deposited data

Results flagged for a closer look

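Gpihbp1 in endothelial cells stood on opposite sides of the summed control in the 2 models. Its log2 ratio over the summed control was 0.35 in angiotensin II and -0.71 in salt-sensitive hypertension. The difference between these values was not tested, since each model is 1 library and both share the control.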

How the results depend on the processing

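No paired analysis was possible because each group is 1 library and the labels pair none of them. Of 122 recomputed ratios of the 4 genes, 99 stayed within the counting interval of the main ratio, 22 moved beyond it and 1 reversed. Only a main ratio past 1.5-fold could count as reversed. Short of that, Cd36 kept its sign in 10 of 11 alternatives in angiotensin II over control and in 5 of 11 in salt-sensitive over control. Against control library 1 alone (19 endothelial cells) Gpihbp1 in salt-sensitive reversed to 0.49. The others against that library were -3.53 (Lpl), 1.54 (Gpihbp1) and 2.58 (Cd36) in angiotensin II and -1.33 (Lpl) and 2.06 (Cd36) in salt-sensitive. Abca1 has no value there, with 0 UMIs. Equal weighting of endothelial clusters used 6 clusters over control and 12 between the models. With it the ratios of Lpl, Gpihbp1 and Cd36 were -1.06, 0.18 and -0.19 in angiotensin II over control. Gpihbp1 had -0.19 in salt-sensitive over control, and the 3 genes had -0.65, 0.42 and 0.27 between the models. The looser gate gave Gpihbp1 0.67 and -0.43 over control. With cells thinned to 1000 UMIs, Cd36 in salt-sensitive over control was 0.27, and Lpl, Gpihbp1 and Cd36 between the models were -1.44, 0.91 and 0.32. A mean over cells gave -1.81, 0.87 and 0.29 between the models, and the joined table -1.76 for Lpl. Without the filter on low levels 3423, 3360 and 2153 genes passed 1.5-fold in angiotensin II over control, salt-sensitive over control and between the models. At 2-fold 283, 277 and 202 passed. Against control library 2 alone, an alternative chosen after seeing the data, 882 and 1386 genes passed 1.5-fold in the models. Clustering at resolution 0.4 gave Gpihbp1 1294.4 CPM in the peritubular-capillary-like cluster. The causes were not tested. Control sums of 377434 endothelial UMIs limit every ratio over control.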

Other observations

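Below the gate, 1 cluster of 437 other cells carried Gpihbp1 at 334 CPM (290.4 to 383) and held 208 of the 388 Gpihbp1 UMIs found outside the gate. Its Cd36 level was 215 CPM and its Lpl level 83.6 CPM, the lowest Lpl level of any cluster of other cells. The macrophage-like cluster of 90 other cells had Cd36 at 203 CPM, Lpl at 159 CPM, Abca1 at 71.3 CPM and 1 UMI of Gpihbp1.

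The joined hypertension table lists 154 angiotensin II cells that the separate table does not, of which 144 pass the endothelial gate. They had a median of 2882.5 genes, and 7 glomerular markers stood at 2434 CPM in them. In these cells Lpl stood at 82.6 CPM, Gpihbp1 at 968 and Cd36 at 328. Over all endothelial cells of angiotensin II, Lpl was 18.8 CPM in the separate and 26.9 CPM in the joined table, and 5 glomerular markers summed to 826 and 1056 CPM.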
